A study of Mus musculus with 24 samples.

Results

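Chemokines are small secreted proteins that steer leukocyte migration through G protein-coupled receptors, and interleukins are cytokines that pass signals between immune cells through receptor chains, several of which are shared by many ligands. In B cells, CCR7, CXCR4 and related receptors place cells in lymphoid tissue, while interleukin receptor chains carry signals for growth, survival and class switching. Genes of both families were picked from the count table by symbol alone: names beginning with Ccr, Cxcr, Ccl, Cxcl or Il followed by a digit, except Ccr2, Ccr9, Ccl22 and Il12rb2. Described here are 85 of 18470 genes: 28 chemokines, 7 chemokine receptors, 28 interleukins and 22 interleukin receptors. Ccr6, Cxcr3, Cxcr5, Il4ra, Il10ra, Il21r, Il13ra1, Ccl3 and Ccl5 were not analysed here.

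The RNA was polyadenylated RNA from sorted memory B cells (csMBC in the labels) of mice exposed to house dust mite extract by the intranasal route and, 6 weeks later, exposed to it again. The 24 libraries form 6 groups of 4. Circulating csMBC and, from the lung, CCR6+CD69+ and CCR6-CD69- csMBC were each taken from WT mice (SCAP +/+ hCD20-TamCre) and from SCAP cKO mice (SCAP fl/fl hCD20-TamCre), with SCAP deleted before the second exposure. Both genotypes carry hCD20-TamCre, a Cre named for the human CD20 promoter, which is active in B cells, and for tamoxifen. The deletion is thus aimed at B cells and not at other cells that a sort may hold. The labels give 2 batches with 2 libraries of every group in each, and name lung as the tissue of all libraries, circulating ones included.

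Values are CPM, the count divided by the library total and multiplied by 1e+06. Total counts ran from 129025 to 8566243 per library, so that 3 counts, the limit that a count of 0 allows, corresponded to 0.350 to 23.3 CPM. Such limits cover counting error only. The libraries with fewer than 500000 counts were cKO lung CCR6-CD69- replicate 4 and WT circulating replicate 2. Scap itself stood at 104 ± 84.5 CPM in WT and 223 ± 152 CPM in cKO circulating libraries (SD, n = 4 each) and was not called lower in cKO in any population. Counts over the whole gene need not show the loss of a part of it, and the groups are named by their labels. The 5 B cell markers analysed summed to 1572 to 3173 CPM in WT circulating and 1491 to 3127 CPM in cKO circulating libraries. In lung CCR6+CD69+ libraries they summed to 3609 to 4723 CPM in WT and 3947 to 5558 CPM in cKO. In lung CCR6-CD69- libraries they summed to 3150 to 4714 CPM in WT and 2027 to 4562 CPM in cKO. The 8 natural killer cell markers analysed summed to 1264 to 3187 CPM in WT circulating and 1558 to 2744 CPM in cKO circulating libraries, against 0 to 26.0 CPM in the 16 lung libraries. The 13 macrophage and monocyte markers reached 42963 CPM in WT lung CCR6-CD69- replicate 2 and 61791 CPM in cKO lung CCR6-CD69- replicate 1, the libraries in which the macrophage gene Chil3 took most counts, and at most 6448 CPM elsewhere. Of these markers, Marco had no count in any WT library. In bulk RNA, fewer cells of a type and less RNA per cell cannot be told apart.

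Of the 85 genes, 31 had no count in any library, 54 were detected and 33 were expressed, meaning 5 CPM or more in at least 4 libraries. The same rule held for 36.4% of all 18470 genes. Expressed genes were 10 of 28 chemokines, 3 of 7 chemokine receptors, 7 of 28 interleukins and 13 of 22 interleukin receptors. Among the genes without a count were the B cell follicle chemokine Cxcl13, the T cell zone chemokine Ccl19, the CCR6 ligand Ccl20, the lymphocyte survival factor Il7, the helper T cell cytokine Il21 and the alarmins Il25 and Il33. Per kilobase of exon, the highest median levels over the 24 libraries were those of Ccr7 (462 CPM per kb), Ccl4 (282), Il2rg (259), Cxcr4 (233), Ccl6 (80.7) and Il1b (60.5). Il17ra followed at 24.2 CPM per kb. Ccr7, Cxcr4, Il2rg, Il17ra, Il10rb, Il6ra and Il1b had counts in all 24 libraries.

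**Figure D1:**
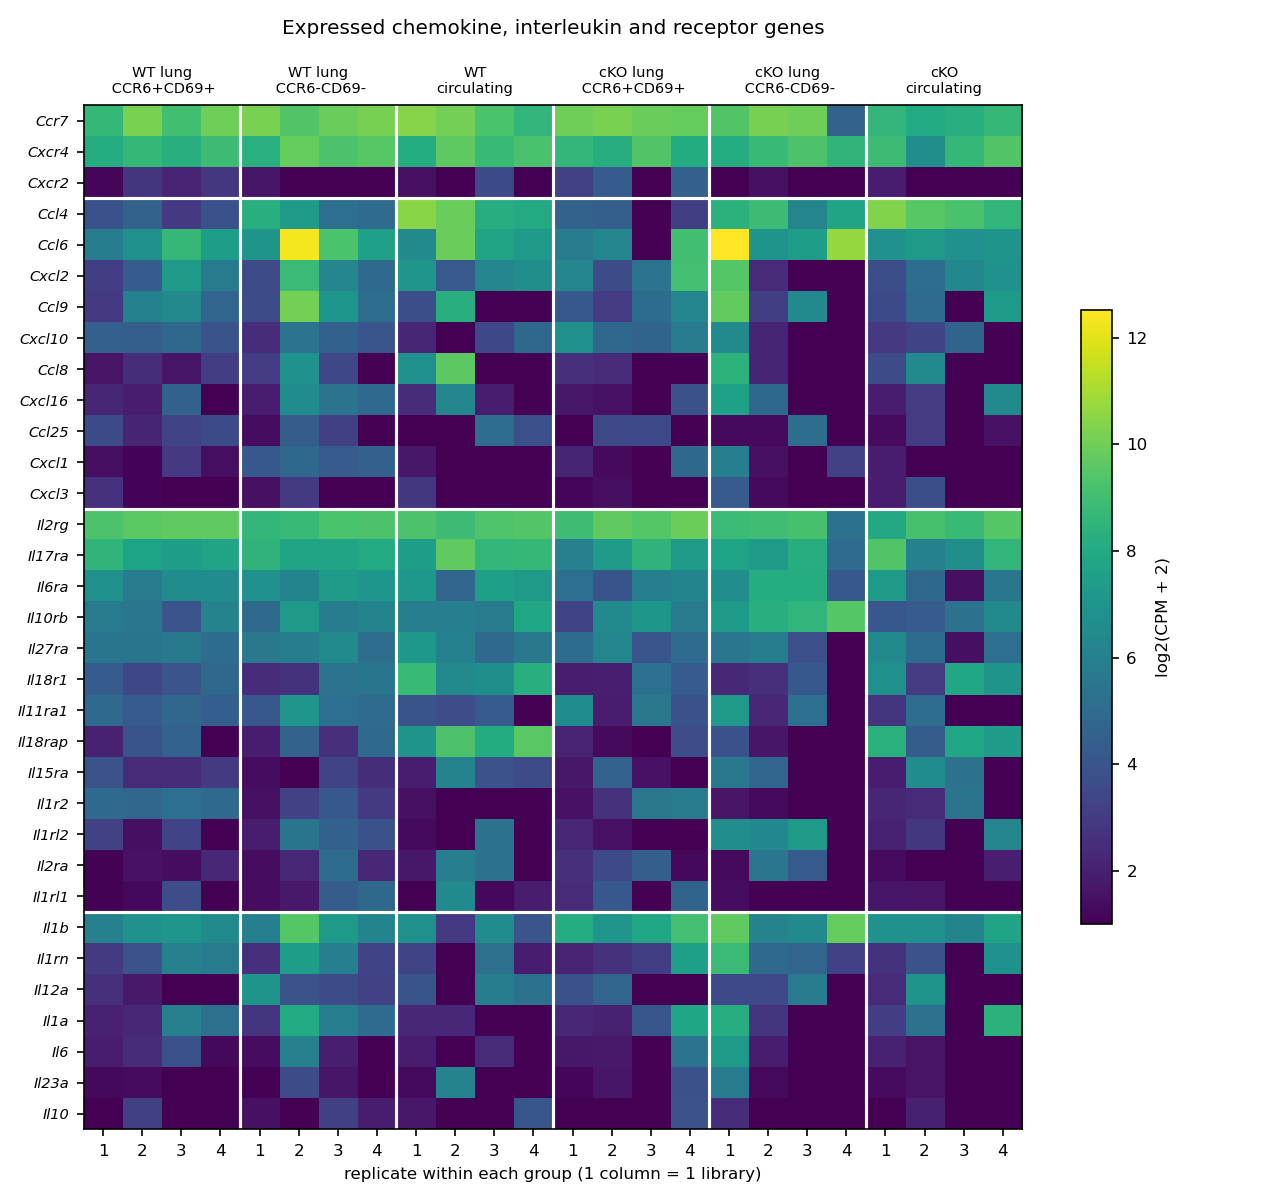
Heat map of the 33 expressed genes (vertical axis, in blocks of chemokine receptors, chemokines, interleukin receptors and interleukins) in the 24 libraries (horizontal axis, 4 replicates in each of 6 groups); colour is log2(CPM + 2), where the 2 is a pseudocount. Ccr7, Cxcr4, Il2rg and Il17ra are bright nearly throughout, Ccl4, Il18r1 and Il18rap are brightest in circulating libraries, and Ccl6 is brightest in 1 WT and 1 cKO lung CCR6-CD69- library.

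Differences were tested with edgeR's quasi-likelihood F-test in all 24 libraries, with batch as a term and adjustment over the 6779 genes tested, and a call is edgeR's unless DESeq2 is named. Of the set, 35 genes were tested, the 33 expressed ones and Ccl27a and Cxcr6. The F-test over all 6 groups called 4 of the 35 (11.4%): Ccl4, Il18r1, Il18rap and Il10rb. Over all genes tested it called 3.47%. Since the filter on low counts keeps a gene that is high in 1 group only, the count over tested genes is a description.

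Averaged over both genotypes, lung CCR6+CD69+ cells had lower RNA than circulating cells for 4 of the 35 genes, namely Ccl4, Il18rap, Il18r1 and Il12a, where 3.32% of all genes were lower. Lung CCR6-CD69- cells had lower RNA than circulating cells for Ccl4, Il18rap and Il18r1, with 1.00% of all genes lower. Between the lung populations, edgeR called 1 of the 35, Ccl4, which was lower in CCR6+CD69+ cells, with 1.36% of all genes lower. EdgeR called 0 of the 35 higher in lung CCR6+CD69+ than in circulating cells, where 1.55% of all genes were higher. With so small a share, nothing about the set is read from that 0. DESeq2 called further genes. Ccl6, Il10rb, Il12a and Il1rl2 were lower in lung CCR6+CD69+ than in lung CCR6-CD69- cells. Il1r2 was higher in lung CCR6+CD69+ than in circulating cells. Ccl6, Cxcl1, Il10rb, Il1b and Il1rn were higher in lung CCR6-CD69- than in circulating cells. The shares of all genes called, here and below, are edgeR's, and over the 6 groups DESeq2 called more of all genes than edgeR did. Nothing about the set is thus read from DESeq2 calls, here or below. The median log2 fold change of the 35 genes was -0.069 for lung CCR6+CD69+ against circulating (0.11 over all genes), 0.54 for lung CCR6-CD69- against circulating (-0.043 over all genes) and -0.92 between the lung populations (0.14 over all genes).

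**Figure D2:**
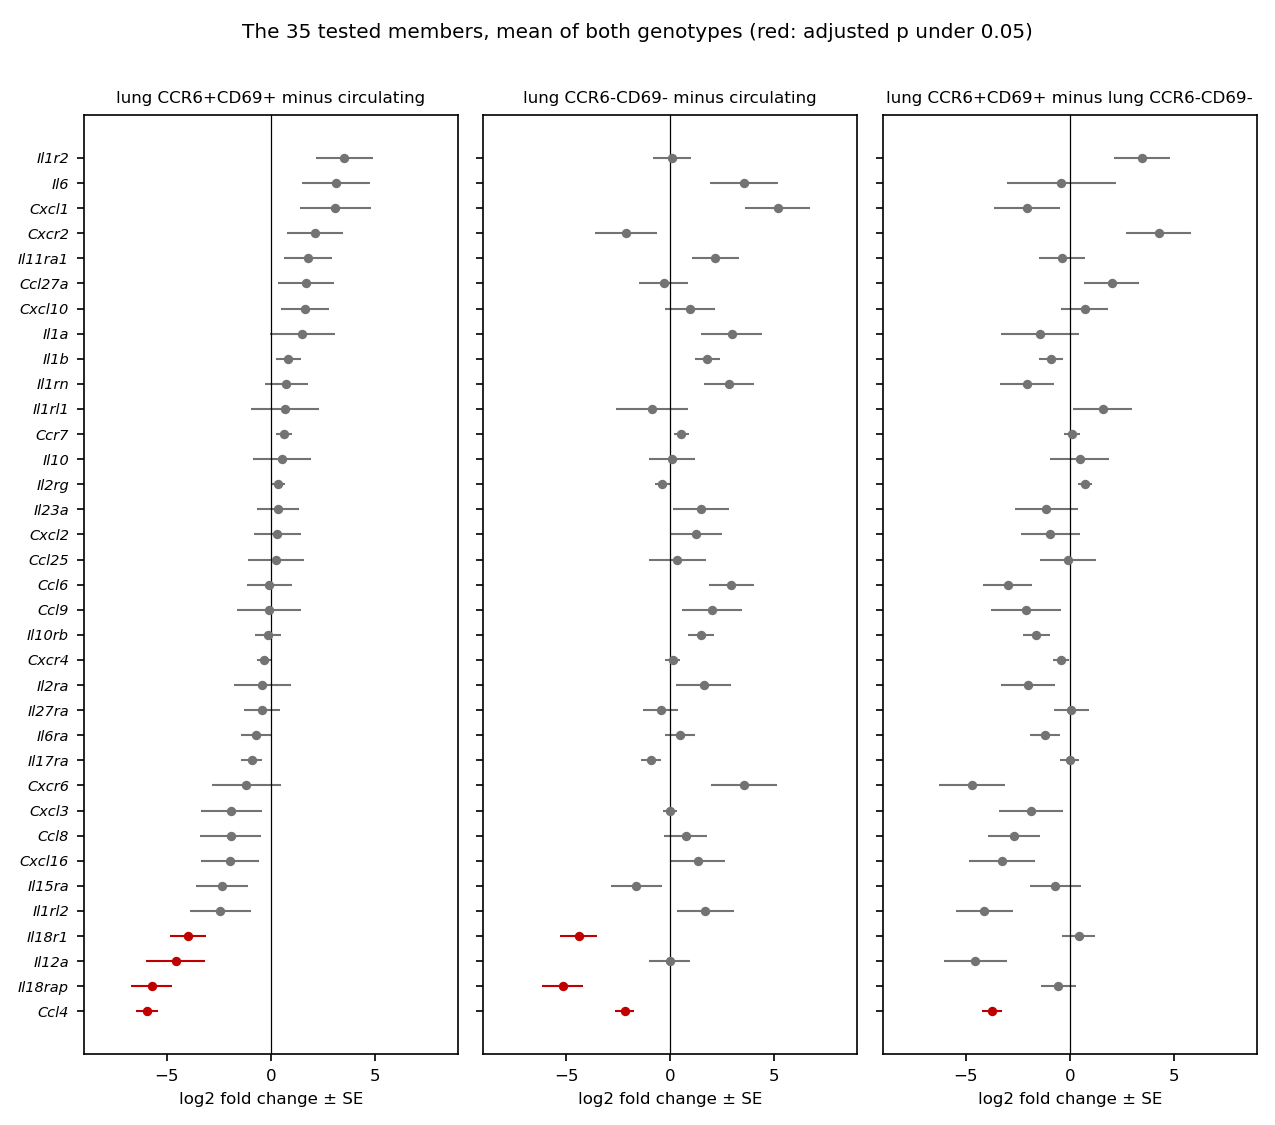
Log2 fold changes (horizontal axes, with standard errors) of the 35 tested genes (vertical axis) in the 3 population comparisons, averaged over genotypes; red marks an adjusted p under 0.05. The red points are Ccl4, Il18rap, Il12a and Il18r1 on the left, all but Il12a in the middle, and Ccl4 alone on the right, and all lie below 0.

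Among the chemokine receptors, Ccr7, which guides lymphocytes towards CCL19 and CCL21 in lymphoid tissue, was the receptor with the highest level per length. In WT libraries it stood at 410, 1181, 526 and 1003 CPM in lung CCR6+CD69+, at 1173, 666, 945 and 1131 CPM in lung CCR6-CD69- and at 1366, 1096, 613 and 386 CPM in circulating cells. In cKO libraries Ccr7 stood at 994, 1182, 955 and 883 CPM in lung CCR6+CD69+, at 665, 1144, 1011 and 23.3 CPM in lung CCR6-CD69- and at 380, 261, 307 and 402 CPM in circulating cells. The cKO circulating libraries lay below the 4 cKO lung CCR6+CD69+ libraries and overlapped with WT circulating ones, and the cKO minus WT difference in circulating cells was not called (-1.02 ± 0.53, edgeR adjusted p = 0.514). The group means ran in order from 337 ± 65.3 CPM in cKO circulating to 1004 ± 128 CPM in cKO lung CCR6+CD69+ cells (SD, n = 4 each), and groups next to each other in that order overlapped.

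Cxcr4, the receptor of CXCL12 that retains B cells in bone marrow and germinal centres, varied less between groups. In WT libraries Cxcr4 stood at 275, 401, 310 and 469 CPM in lung CCR6+CD69+, at 311, 882, 619 and 726 CPM in lung CCR6-CD69- and at 276, 796, 437 and 594 CPM in circulating cells. In cKO libraries Cxcr4 stood at 398, 287, 662 and 268 CPM, 281, 442, 627 and 364 CPM, and 468, 100, 404 and 662 CPM in the same order of populations. All 6 groups overlapped. The group means of Cxcr4 ran from 364 ± 88.0 to 635 ± 241 CPM (SD, n = 4 each), and the log2 difference between the lung populations was -0.42 ± 0.37 (edgeR adjusted p = 0.804).

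The other receptors of this family were low. Cxcr2, a receptor of neutrophil-attracting chemokines, reached 5 CPM in 5 libraries, 1 WT and 3 cKO lung CCR6+CD69+ and 1 WT circulating, with a highest value of 21.0 CPM. The 7 neutrophil markers analysed summed to 71.6 to 202 CPM in WT lung CCR6+CD69+ and 7.61 to 38.2 CPM in WT lung CCR6-CD69- libraries, with Ngp and Ltf at 0 in all 3 WT groups. In cKO libraries they summed to 1268, 115, 40.4 and 657 CPM in lung CCR6+CD69+ replicates 1 to 4 and to 0 to 440 CPM in lung CCR6-CD69-, with Ltf at 0 in both groups and Ngp at 0 in the second, and their part in the Cxcr2 values was not tested. Cxcr6, the receptor of CXCL16 on tissue lymphocytes, was at 127 CPM in cKO lung CCR6-CD69- replicate 3 and at 22.8 CPM or less elsewhere. Ccr3 stayed under 5 CPM, Ccr8 passed it in 2 libraries, and Cxcr1 had no count.

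**Figure D3:**
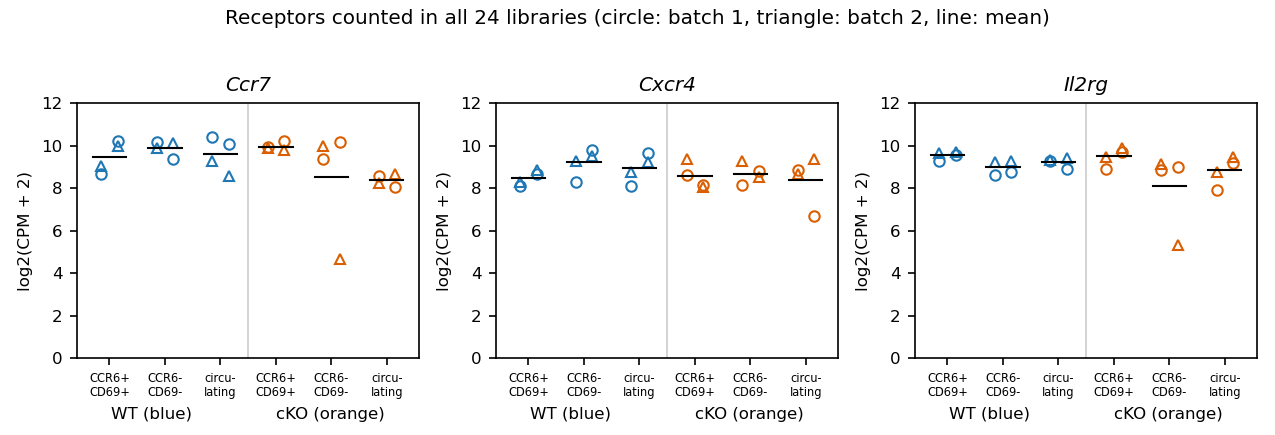
Levels of Ccr7, Cxcr4 and Il2rg as log2(CPM + 2) (vertical axes) in the 2 lung populations and the circulating groups of WT (blue) and cKO (orange) mice; each point is a library (circle batch 1, triangle batch 2) and lines are means of 4. The groups overlap in most pairs, and the low cKO lung CCR6-CD69- point in the Ccr7 and Il2rg panels is the library of 129025 counts.

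Among the chemokines, Ccl4 (MIP-1 beta), an inflammatory chemokine that B cells release after antigen receptor stimulation, showed the smallest adjusted p of the set. In WT libraries Ccl4 stood at 13.0, 23.7, 5.53 and 13.0 CPM in lung CCR6+CD69+, at 305, 163, 34.9 and 30.2 CPM in lung CCR6-CD69- and at 1428, 936, 286 and 264 CPM in circulating cells. In cKO libraries Ccl4 stood at 23.3, 20.6, 0 and 6.75 CPM in lung CCR6+CD69+, at 335, 481, 74.5 and 209 CPM in lung CCR6-CD69- and at 1287, 736, 585 and 383 CPM in circulating cells. Every lung CCR6+CD69+ library lay below every library of the other populations, while lung CCR6-CD69- and circulating libraries overlapped.

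Ccl4 differed between lung CCR6+CD69+ and circulating cells by a log2 fold change of -5.94 ± 0.53 SE (edgeR adjusted p = 1.06e-12, n = 8 each). Between the lung populations, CCR6+CD69+ minus CCR6-CD69-, it was -3.75 ± 0.48 (edgeR adjusted p = 2.34e-07), and between lung CCR6-CD69- and circulating -2.19 ± 0.45 (edgeR adjusted p = 0.00195). Within batches 1 and 2 the mean differences of log2(CPM + 2), in the same order of comparisons, were -5.62 and -5.76, -3.80 and -3.31, and -1.82 and -2.45. Batch 2 alone, with 2 libraries a group, called Ccl4 in the first of these comparisons only. The call between lung CCR6-CD69- and circulating cells was also lost with no batch term (edgeR adjusted p = 0.219).

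In WT mice alone, edgeR called Ccl4 and no other gene of the set between the lung populations (-2.74 ± 0.66, edgeR adjusted p = 0.0392), where 0.295% of all genes were lower. Against circulating cells, WT lung CCR6+CD69+ cells were lower in Ccl4 (-5.44 ± 0.73, edgeR adjusted p = 1.51e-06) and in Il18rap, where 1.02% of all genes were lower. DESeq2 also called Il18r1 and Il12a lower and Il1r2 higher in this comparison. For WT lung CCR6-CD69- against circulating cells, edgeR called Ccl4 alone, as lower (-2.70 ± 0.64, edgeR adjusted p = 0.049991), where 0.148% of all genes were lower. DESeq2 also called Il18r1 (-4.39, DESeq2 adjusted p = 1.49e-04) and Il18rap (-4.98, DESeq2 adjusted p = 0.00466) lower there. For both of these genes the 2 groups did not overlap. The WT call between the lung populations was lost without any 1 of 10 libraries (each WT lung CCR6+CD69+ library, WT lung CCR6-CD69- replicates 1 and 3, WT circulating replicate 1 and cKO circulating replicates 1, 2 and 3), with adjusted p from 0.0524 to 0.399. The WT call of lung CCR6-CD69- against circulating was lost without any 1 of 17 of the 24 libraries (adjusted p 0.0536 to 0.370), the exceptions being WT circulating replicate 2, cKO lung CCR6+CD69+ replicate 3, cKO lung CCR6-CD69- replicates 1, 3 and 4 and cKO circulating replicates 3 and 4.

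The natural killer markers were at 0 to 26.0 CPM in both lung populations, between which Ccl4 differed. The 5 T cell markers analysed summed to 11.2 to 28.8 CPM in WT lung CCR6+CD69+, 83.2 to 202 CPM in WT lung CCR6-CD69- and 244 to 653 CPM in WT circulating libraries. In cKO libraries they summed to 0 to 76.7, 15.5 to 266 and 130 to 1349 CPM in the same order. Averaged over genotypes, edgeR called some markers lower in lung CCR6+CD69+ than in lung CCR6-CD69- cells, where 1.36% of all genes were lower. They were 1 of 5 tested T cell, 2 of 3 plasma cell (median log2 fold change -3.11) and 2 of 3 plasmacytoid dendritic cell markers (-4.35). Also called were 1 of 4 conventional dendritic cell markers (-2.26) and 1 of 11 macrophage and monocyte markers (-2.62). No marker of the other lists was called in either direction. Their medians were 2.70 (4 neutrophil), 1.04 (3 epithelial, endothelial and stromal), 0.17 (5 B cell), -0.24 (2 eosinophil, mast cell and basophil) and -0.47 (8 natural killer). The plasma cell markers summed to 288 to 584 CPM in WT lung CCR6+CD69+ and 497 to 5215 CPM in WT lung CCR6-CD69- libraries, and to 141 to 380 and 393 to 1426 CPM in the same cKO populations. Of 8 plasmacytoid dendritic cell markers listed, 3 were analysed, and their median of -4.35 is the value of Lifr. Only the 2 called were lower. The 3 summed to 736 to 1464 CPM in WT lung CCR6+CD69+ and 633 to 1418 CPM in WT lung CCR6-CD69- libraries. In the same cKO populations they summed to 468 to 1493 and 504 to 1744 CPM. The part of these lists in the Ccl4 difference was not tested. None of the 5 T cell and none of the 8 natural killer markers was at 0 in every library of a group. In circulating libraries the natural killer markers were high together with Ccl4, Il18r1 and Il18rap, and their part in these results was not tested. Averaged over genotypes, edgeR called 2 of 5 B cell markers higher and 3 of 5 T cell markers lower in lung CCR6+CD69+ than in circulating cells. Of all genes, 1.55% were higher and 3.32% lower there. The part of these B cell and T cell markers was not tested either.

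**Figure D4:**
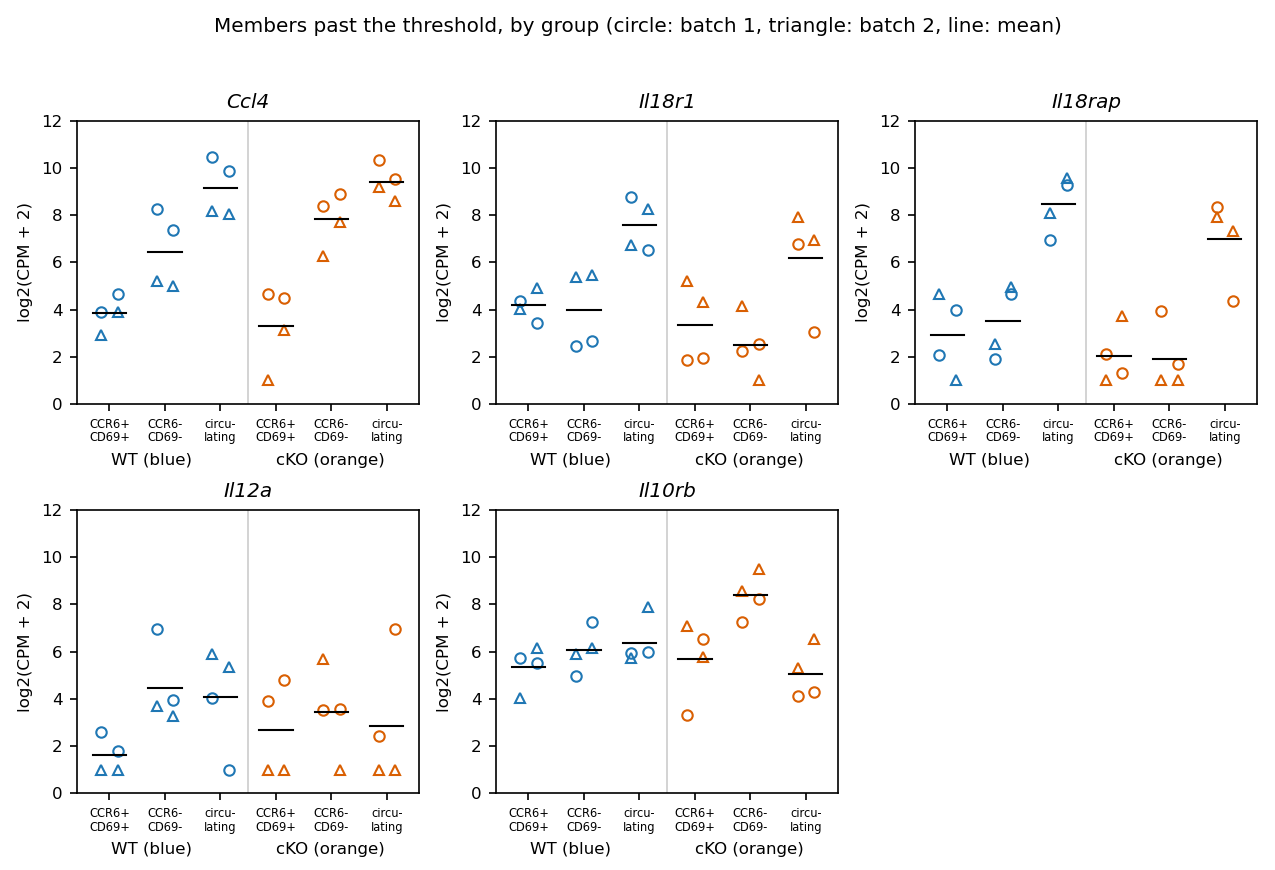
Levels as log2(CPM + 2) (vertical axes) of the 5 genes called in any comparison, in the 2 lung populations and the circulating groups of WT (blue) and cKO (orange) mice; each point is a library (circle batch 1, triangle batch 2) and lines are means of 4. Mean Ccl4 is lowest in lung CCR6+CD69+ and highest in circulating groups, Il18r1 and Il18rap are high in circulating groups, and Il10rb is highest in the cKO lung CCR6-CD69- group.

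Of the remaining chemokines, Ccl6 and Ccl9, products of macrophages and other myeloid cells, stood at 5188 and 1109 CPM in WT lung CCR6-CD69- replicate 2 and at 5860 and 856 CPM in cKO lung CCR6-CD69- replicate 1. In the other libraries Ccl6 reached at most 1635 CPM and Ccl9 at most 300 CPM. Both high libraries are those with the largest sums of macrophage markers, whose part in the values was not tested. EdgeR called neither gene in a comparison (Ccl6 between the lung populations: -3.00 ± 1.18, edgeR adjusted p = 0.357).

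Cxcl2, a neutrophil attractant, was at 722 CPM in cKO lung CCR6-CD69- replicate 1, at 542 CPM in cKO lung CCR6+CD69+ replicate 4 and at 460 CPM in WT lung CCR6-CD69- replicate 2, and at 146 CPM or less elsewhere. Its relative Cxcl1 averaged 20.6 ± 5.47 CPM in WT lung CCR6-CD69- and 0.331 ± 0.663 CPM in WT circulating libraries (SD, n = 4 each), groups that did not overlap, but edgeR did not call the difference (5.49 ± 2.27, edgeR adjusted p = 0.458). Cxcl10, an interferon-induced ligand of CXCR3, had its highest group mean in cKO lung CCR6+CD69+ libraries (53.0 ± 39.3 CPM, n = 4) and its lowest in cKO circulating ones (9.54 ± 10.5 CPM). Cxcl9, another CXCR3 ligand, passed 5 CPM in 3 libraries only: cKO circulating replicate 4 (141 CPM), cKO lung CCR6-CD69- replicate 1 (122 CPM) and cKO lung CCR6+CD69+ replicate 4 (65.0 CPM). Ccl8 peaked at 771 CPM in WT circulating replicate 2, the library of 356782 counts, and Ccl25, Cxcl16 and Cxcl3 had group means of 0.261 to 53.7 CPM.

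**Figure D5:**
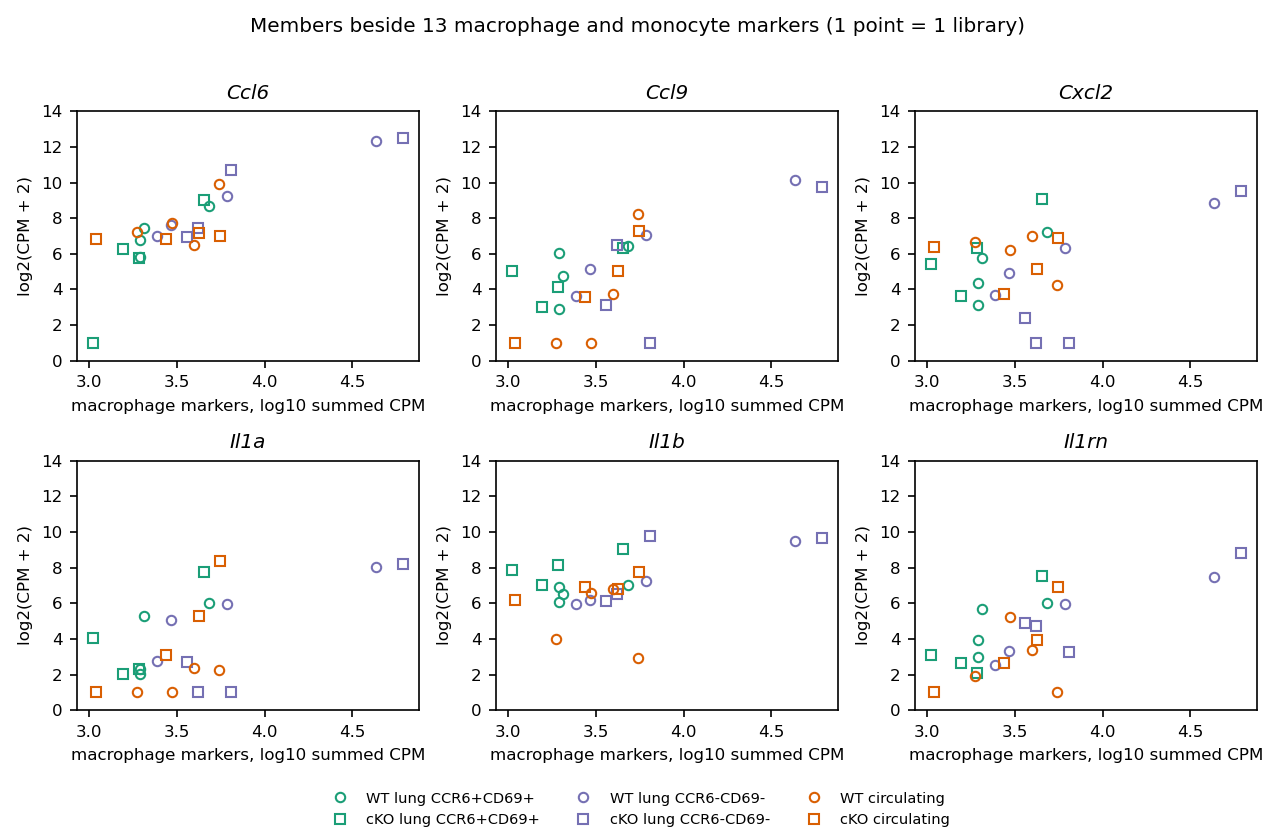
Levels of Ccl6, Ccl9, Cxcl2, Il1a, Il1b and Il1rn as log2(CPM + 2) (vertical axes) against the summed CPM of 13 macrophage and monocyte markers on a log10 scale (horizontal axes); each point is a library, coloured by population, with circles for WT and squares for cKO. The 2 points at the far right are WT lung CCR6-CD69- replicate 2 and cKO lung CCR6-CD69- replicate 1, at 42963 and 61791 CPM of markers.

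Among the interleukin receptors, both chains of the IL-18 receptor were low in lung and high in circulating cells. Il18r1 encodes the chain that binds IL-18 and Il18rap the accessory chain that completes the signalling receptor, which is best known from natural killer and T cells. Counting only protein-coding genes of the RefSeq table, the genes lie side by side on chromosome 1. They end a run of 6 genes of the set (Il1r2, Il1r1, Il1rl2, Il1rl1, Il18r1 and Il18rap) with no other protein-coding gene between them. The start regions of Il18r1 and Il18rap are shown because both genes were called lower in each lung population than in circulating cells, averaged over genotypes. Among the WT circulating libraries alone, the library highest for Il18r1 was the lowest for Il18rap. The windows hold 250 bases before and 50 after a RefSeq start on GRCm38.p6, plus strand. That of Il18r1 is 1 of 3 listed for the gene, chosen for its matches (chr1:40465371-40465670), and that of Il18rap is the only one listed (chr1:40515112-40515411).
Il18r1: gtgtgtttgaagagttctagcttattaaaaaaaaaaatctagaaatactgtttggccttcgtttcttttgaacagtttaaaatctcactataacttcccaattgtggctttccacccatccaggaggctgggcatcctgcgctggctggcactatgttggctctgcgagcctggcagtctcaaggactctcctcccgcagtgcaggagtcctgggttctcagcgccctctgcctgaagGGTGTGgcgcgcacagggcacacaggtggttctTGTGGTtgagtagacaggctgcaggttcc
Il18rap: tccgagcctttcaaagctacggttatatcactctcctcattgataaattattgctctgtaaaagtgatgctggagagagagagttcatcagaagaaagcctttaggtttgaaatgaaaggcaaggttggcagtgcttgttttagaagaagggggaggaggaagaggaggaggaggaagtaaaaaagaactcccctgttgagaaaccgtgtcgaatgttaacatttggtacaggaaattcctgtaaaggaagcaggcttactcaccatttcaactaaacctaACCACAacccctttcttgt

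Capitals mark matches to 2 cores searched on both strands, the T-box core GGTGTG and the RUNX core TGTGGT, whose matches can share letters where they adjoin and do not do so here. The Il18r1 window held the T-box core at position -12 and the RUNX core at position 22 from the start, and the Il18rap window held the RUNX core on the minus strand at position 32. Neither window held the AP-1 core TGANTCA or the TATA box TATAAA, and the other windows of Il18r1 held none of the 4. Of 32851 RefSeq windows of the same length, 19.05% held the T-box core, 16.76% the RUNX core, 7.808% the AP-1 core and 13.62% the TATA box. A match is a description of the letters and not of a bound site.

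In WT libraries Il18r1 stood at 18.3, 8.87, 14.3 and 27.8 CPM in lung CCR6+CD69+, at 3.55, 4.41, 39.3 and 42.3 CPM in lung CCR6-CD69- and at 438, 89.7, 105 and 305 CPM in circulating cells. In cKO libraries it stood at 1.64, 1.91, 34.6 and 17.8 CPM in lung CCR6+CD69+, at 2.80, 3.79, 15.8 and 0 CPM in lung CCR6-CD69- and at 106, 6.27, 241 and 122 CPM in circulating cells. In WT, Il18r1 in circulating libraries did not overlap with either lung population, and in cKO the low circulating replicate 2 did.

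In WT libraries Il18rap stood at 2.22, 13.9, 23.0 and 0 CPM in lung CCR6+CD69+, at 1.78, 23.5, 3.80 and 29.3 CPM in lung CCR6-CD69- and at 123, 628, 270 and 762 CPM in circulating cells. In cKO libraries it stood at 2.30, 0.478, 0 and 11.4 CPM, at 13.1, 1.26, 0 and 0 CPM, and at 324, 18.8, 241 and 159 CPM in the same order of populations. Within each genotype, circulating libraries lay above all lung libraries for Il18rap.

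Averaged over genotypes, Il18rap differed from circulating cells by -5.72 ± 0.99 in lung CCR6+CD69+ (edgeR adjusted p = 5.71e-05) and by -5.18 ± 0.97 in lung CCR6-CD69- (edgeR adjusted p = 0.00103). Il18r1 differed by -3.99 ± 0.88 (edgeR adjusted p = 0.00152) and -4.41 ± 0.90 (edgeR adjusted p = 0.00195) in the same comparisons. Neither chain was called between the lung populations (Il18r1 0.42 ± 0.78, Il18rap -0.55 ± 0.86). The WT call of Il18rap between lung CCR6+CD69+ and circulating cells (-5.39 ± 1.37, edgeR adjusted p = 0.0263) was lost without WT lung CCR6+CD69+ replicate 1, 2 or 4, WT circulating replicate 2 or 4 or cKO lung CCR6-CD69- replicate 4, with adjusted p from 0.0508 to 0.138. It was also lost with no batch term (edgeR adjusted p = 0.0607) and within batch 1 (0.170) or batch 2 alone (0.849). The same held with a replicate block (0.0697) and without the 2 libraries under 500000 counts (0.0529). In batch 2 alone, the calls of both chains averaged over genotypes were lost as well (edgeR adjusted p 0.0939 to 0.191). All 8 natural killer markers analysed were called lower in each lung population than in circulating cells when averaged over genotypes, with median log2 fold changes of -8.50 and -7.87. Of all genes, 3.32% were lower in lung CCR6+CD69+ and 1.00% in lung CCR6-CD69- cells. The part of these markers in the Il18r1 and Il18rap differences was not tested.

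Il10rb, the chain shared by the receptors of IL-10, IL-22 and type III interferons, was called over the 6 groups (edgeR adjusted p = 0.0446) but edgeR called it in no single comparison. In WT libraries Il10rb stood at 50.5, 44.3, 14.3 and 68.7 CPM in lung CCR6+CD69+, at 29.6, 149, 57.1 and 69.5 CPM in lung CCR6-CD69- and at 59.7, 61.7, 50.7 and 232 CPM in circulating cells. In cKO libraries it stood at 7.88, 90.4, 135 and 52.2 CPM in lung CCR6+CD69+, at 151, 297, 381 and 713 CPM in lung CCR6-CD69- and at 15.3, 17.8, 36.9 and 89.8 CPM in circulating cells. The cKO lung CCR6-CD69- libraries lay above those of every other group except for WT circulating replicate 4.

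The cKO minus WT difference of Il10rb in lung CCR6-CD69- cells was 2.42 ± 0.94 on the log2 scale (edgeR adjusted p = 0.610), and DESeq2 called it. Its highest value came from the library of 129025 counts, in which 2134 genes were detected against 4535 or more in every other library. There Rn18s-rs5 took the most counts. Markers of eosinophils, mast cells and basophils summed to 2751 CPM in this library against at most 205 CPM elsewhere. Of the 7 such markers analysed, Epx, Cpa3, Mcpt8 and Fcer1a had no count in any library of its group. The part of the library's low depth and of these markers in the Il10rb value was not tested. The call over the 6 groups was lost without any 1 of 15 libraries (adjusted p 0.0507 to 0.218): all WT lung CCR6+CD69+ libraries, WT lung CCR6-CD69- replicates 1, 3 and 4, WT circulating replicate 3, cKO lung CCR6+CD69+ replicates 2, 3 and 4, cKO lung CCR6-CD69- replicates 2, 3 and 4, and cKO circulating replicate 3. It was also lost with a replicate block (edgeR adjusted p = 0.0835), with no batch term (0.0518), without the 2 libraries under 500000 counts (0.0827) and within batch 1 (0.458) or batch 2 alone (0.402).

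Il2rg encodes the common gamma chain, part of the receptors of IL-2, IL-4, IL-7, IL-15 and IL-21. In WT libraries Il2rg stood at 630, 762, 822 and 835 CPM in lung CCR6+CD69+, at 397, 429, 607 and 632 CPM in lung CCR6-CD69- and at 627, 474, 647 and 689 CPM in circulating cells. In cKO libraries it stood at 484, 836, 701 and 964 CPM, at 463, 509, 567 and 38.8 CPM, and at 242, 579, 440 and 708 CPM in the same order. The groups overlapped in most pairs, and the log2 difference between the lung populations of 0.72 ± 0.35 was not called (edgeR adjusted p = 0.489).

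The other 9 expressed receptors were not called by edgeR in any comparison, while DESeq2 called Il1r2 and Il1rl2. Il17ra, the common chain of the IL-17 receptors, had group means of 169 to 455 CPM, Il6ra, the IL-6 binding chain, of 45.3 to 167 CPM, and Il27ra, which binds IL-27, of 27.4 to 69.7 CPM. Il1r2, a decoy receptor that binds IL-1 without signalling, was at 28.4, 26.1, 35.2 and 28.9 CPM in WT lung CCR6+CD69+ libraries and at most 15.8 CPM in the other WT libraries, so that these groups did not overlap. In cKO lung CCR6+CD69+ libraries Il1r2 ranged from 0.985 to 52.6 CPM. Its log2 difference between the lung populations, averaged over genotypes, was 3.45 ± 1.35 (edgeR adjusted p = 0.286). Il1rl2, the IL-36 receptor chain, had its highest group mean in cKO lung CCR6-CD69- (84.1 ± 63.8 CPM) and its lowest in cKO lung CCR6+CD69+ libraries (0.978 ± 1.39 CPM; SD, n = 4 each). Il1rl1, the IL-33 receptor chain, passed 5 CPM in 6 libraries, Il2ra, the IL-2 receptor alpha chain, in 7, Il15ra in 11 and Il11ra1 in 17.

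Among the interleukins, Il12a, which encodes the p35 chain of IL-12 and IL-35, was the only gene that edgeR called. In WT libraries Il12a stood at 4.09, 1.48, 0 and 0 CPM in lung CCR6+CD69+, at 121, 13.2, 10.8 and 7.54 CPM in lung CCR6-CD69- and at 14.1, 0, 57.2 and 39.0 CPM in circulating cells. In cKO libraries it stood at 12.8, 25.3, 0 and 0 CPM, at 9.48, 9.69, 49.7 and 0 CPM, and at 3.29, 123, 0 and 0 CPM in the same order. The WT lung populations did not overlap, and all other pairs of groups within a genotype did.

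Il12a was lower in lung CCR6+CD69+ than in circulating cells over both genotypes (-4.57 ± 1.43, edgeR adjusted p = 0.0470). Of the cKO circulating libraries, however, 2 of 4 were at 0, and within batches the mean difference of log2(CPM + 2) was -0.33 and -2.31. Without cKO circulating replicate 2 the difference was -2.27, and in batch 1 alone it was -1.75 (edgeR adjusted p = 0.511). With no batch term (-3.15, edgeR adjusted p = 0.244), in batch 2 alone (edgeR adjusted p = 1.00) or with a replicate block (edgeR adjusted p = 0.0903) the call was also lost. The call was lost without any 1 of 14 libraries (adjusted p 0.0541 to 0.421): all 8 lung CCR6+CD69+ libraries, WT lung CCR6-CD69- replicates 1, 3 and 4, WT circulating replicates 3 and 4 and cKO circulating replicate 2.

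Il6, which drives plasma cell differentiation and acute inflammation, had a median of 1.53 CPM in lung CCR6+CD69+ libraries (range 0 to 40.1), 1.14 CPM in lung CCR6-CD69- (0 to 147) and 0.522 CPM in circulating ones (0 to 3.24; n = 8 each). Its highest values were 147 CPM in cKO lung CCR6-CD69- replicate 1, 61.8 CPM in WT lung CCR6-CD69- replicate 2 and 40.1 CPM in cKO lung CCR6+CD69+ replicate 4. Il10, the main immunosuppressive cytokine of regulatory B cells, was at 0 in 6 of 8 lung CCR6+CD69+, 4 of 8 lung CCR6-CD69- and 5 of 8 circulating libraries and at most 14.7 CPM. Neither gene was called in a comparison.

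Of the IL-1 genes, Il1b, the secreted inflammatory cytokine, had counts in all libraries and group means from 55.1 ± 52.7 CPM in WT circulating to 468 ± 450 CPM in cKO lung CCR6-CD69- cells (SD, n = 4 each). Over the 6 groups it did not pass in edgeR (adjusted p = 0.109) and did in DESeq2 (adjusted p = 0.0127). Il1a, its membrane-bound relative, reached 331 CPM in cKO circulating replicate 4, and Il1rn, the receptor antagonist, 453 CPM in cKO lung CCR6-CD69- replicate 1. Il23a, the IL-23 p19 chain, reached 70.1 CPM in WT circulating replicate 2 and passed 5 CPM in 4 libraries. Il17a was at 40.9 CPM in cKO lung CCR6-CD69- replicate 1 and 30.9 CPM in cKO lung CCR6+CD69+ replicate 4, and under 1 CPM in all others. Il2, a T cell growth factor, passed 5 CPM in 1 library.

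The same few libraries held many of these peaks. Of the 33 expressed genes, 16 had one of their 3 highest values in cKO lung CCR6-CD69- replicate 1, 14 in WT lung CCR6-CD69- replicate 2, 11 in cKO lung CCR6+CD69+ replicate 4 and 10 in WT circulating replicate 2. Without the 2 libraries led by Chil3, the same 4 genes were called over the 6 groups, and without the 2 libraries under 500000 counts Il10rb was lost.

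Genotype effects were tested within each population. In lung CCR6+CD69+, in lung CCR6-CD69- and in circulating cells 0 of the 35 genes and 0% of all genes tested were called by edgeR, and the test of whether the genotype effect differed between populations also called 0%. At an unadjusted p under 0.05 edgeR counted 2, 3, 3 and 5 of the 35 genes in these 4 tests (5.71%, 8.57%, 8.57% and 14.3%), where the shares over all genes were 2.29%, 7.32%, 10.2% and 6.28%. DESeq2 called 1 of the set, Il10rb, in lung CCR6-CD69- cells and 0 in the other 3 tests. The share of all genes that DESeq2 called in these tests is not given, so nothing is read from that count. Ccl4 differed between cKO and WT by -0.47 ± 0.63 in lung CCR6+CD69+, 1.55 ± 0.63 in lung CCR6-CD69- and 0.54 ± 0.60 in circulating cells. The intervals of these differences are wide, and a p that misses the threshold does not show that the genotypes are alike.

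Other genes of these pathways were counted by list, averaged over genotypes. The shares of all genes called lower, to read these counts against, were 3.32% for lung CCR6+CD69+ against circulating, 1.00% for lung CCR6-CD69- against circulating and 1.36% between the lung populations. The share higher in lung CCR6+CD69+ than in circulating cells was 1.55%. Of 6 tested atypical chemokine receptors and other ligands, Xcl1, a chemokine of natural killer and T cells, was lower in lung CCR6+CD69+ (-7.23 ± 1.19) and in lung CCR6-CD69- (-5.10 ± 1.11) than in circulating cells. Ackr2, a scavenger of inflammatory chemokines, was higher in lung CCR6+CD69+ than in circulating cells (4.70 ± 1.44, edgeR adjusted p = 0.0422). It ranged from 9.04 to 20.8 CPM in WT and from 0 to 100 CPM in cKO lung CCR6+CD69+ libraries. Pf4, a platelet chemokine, was lower in lung CCR6+CD69+ than in lung CCR6-CD69- cells (-5.60 ± 1.56, edgeR adjusted p = 0.0448). In lung CCR6-CD69- libraries Pf4 ranged from 0 to 38.2 CPM in WT and from 0 to 84.0 CPM in cKO. It reached at most 0.739 and 1.43 CPM in lung CCR6+CD69+ libraries of WT and cKO. The part of single libraries and of macrophage markers in these calls was not tested. Of 16 tested genes of G protein signalling and lymphocyte guidance, Gpr183, the EBI2 receptor that positions B cells, and Rgs1, which dampens chemokine receptor signals, were higher in lung CCR6+CD69+ than in circulating cells (2.36 ± 0.72, edgeR adjusted p = 0.0474, and 1.23 ± 0.34, edgeR adjusted p = 0.0207).

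Rgs18, another regulator of G protein signals, was lower in lung CCR6+CD69+ than in circulating (-7.19 ± 1.55) and in lung CCR6-CD69- cells (-5.16 ± 1.40). Itgal, the integrin chain of LFA-1, was lower in lung CCR6-CD69- than in circulating cells (-1.75 ± 0.31, edgeR adjusted p = 3.08e-04). Of 12 tested genes of interleukin signal transduction, Lifr, the receptor chain of leukaemia inhibitory factor, was lower in lung CCR6+CD69+ than in circulating (-6.27 ± 0.80) and in lung CCR6-CD69- cells (-4.35 ± 0.73), and stands also on the list of plasmacytoid dendritic cell markers. Stat4, which acts downstream of IL-12, was lower in lung CCR6-CD69- than in circulating cells (-2.90 ± 0.72, edgeR adjusted p = 0.0185). Of 10 tested genes of negative feedback, such as the SOCS family, 0 were called in these 3 comparisons, and 0 genes of the 4 lists were called between genotypes.

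The genes with the most similar patterns over the 24 libraries (Pearson's r of log2 CPM, given as a description, since the libraries share groups and batches) were Tex2 for Ccl4 (0.913), Itih5 for Il18r1 (0.802) and Car2 for Il18rap (0.816). Eomes, a transcription factor of natural killer and T cells and 1 of the 8 natural killer markers, came next to Il18rap (0.811). For Ccr7 it was Dok3 (0.914), for Il2rg Uhmk1 (0.935), for Cxcr4 Rapgef6 (0.610), for Il10rb Wdr3 (0.688), for Il12a A430005L14Rik (0.760), for Il6 Fabp4 (0.896) and for Il10 Amigo1 (0.772).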

How the data were processed

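The deposited table holds unnormalized counts, whole numbers by gene symbol, for each of the 24 samples. FastQC, STAR, Salmon and build mm39 are named in the submitters' processing notes. Which tool made the counts, and whether strand was used, is not given in the sources used here. Totals are over the genes analysed here. CPM were computed on these totals, and CPM per kb on the exon length of GENCODE gene models.

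Tests were run in R 4.3.3 with edgeR 4.0.16: TMM scaling, filterByExpr by group (6779 genes), batch as a term, a robust quasi-likelihood F-test and Benjamini-Hochberg adjustment over all genes tested, with 0.05 as the threshold. The common dispersion was 1.20. Fold changes are log2. Their standard errors were computed as the absolute log2 fold change divided by the square root of the F statistic, and not taken from the fit. The code was tested on simulated data. Alternatives were relative log expression (RLE) scaling, DESeq2 1.42.0, other filters, no batch term, each batch, a replicate block, only the groups compared, and libraries left out.

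Values by library are given for genes called in any comparison and for Ccr7, Cxcr4 and Il2rg, with Il6 and Il10 by range, from a fixed list of genes with roles in B cells. Of the genes taken by symbol, 1 is not reported here. Genes and lists were chosen with earlier results of these data known. No label says that replicates are separate animals, so that a p-value here refers to the spread between these libraries only, which may be technical. RefSeq promoter windows (GRCm38.p6) matched 62 of the 85 genes by symbol. Their coordinates are not those of mm39.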

Additional observations from a re-analysis of the deposited data

Results flagged for a closer look

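In each of the 10 genes followed by library, the highest or lowest library of each group of 4 was set against the others by Dixon's ratio at the 95% level. Of 60 groups, 12 had a library that stood apart. The rate of about 1 in 20 that chance gives holds for normally distributed values, which CPM bounded at 0 are not, so nothing is read from the number. Il6 stood apart in WT lung CCR6-CD69- replicate 2 (61.8 CPM), cKO lung CCR6-CD69- replicate 1 (147 CPM) and cKO lung CCR6+CD69+ replicate 4 (40.1 CPM). Il10 stood apart in WT lung CCR6+CD69+ replicate 2 (7.02 CPM), WT circulating replicate 4 (14.7 CPM), cKO lung CCR6+CD69+ replicate 4 (13.5 CPM), cKO lung CCR6-CD69- replicate 1 (3.45 CPM) and cKO circulating replicate 2 (2.09 CPM). In 4 of these 5 Il10 groups, all but WT circulating, the other 3 libraries were at 0, so that any count there gives the highest ratio, and the 2.09 CPM are 2 counts, under the limit of 3.13 CPM in that library. Il12a did so in WT lung CCR6-CD69- replicate 1 (121 CPM) and cKO circulating replicate 2 (123 CPM), Il10rb in WT circulating replicate 4 (232 CPM) and Il18rap in cKO lung CCR6-CD69- replicate 1 (13.1 CPM).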

How the results depend on the processing

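The 4 genes called over the 6 groups became 8 with no filter, 0 in batch 2 alone, 3 with a replicate block, which lost Il10rb, and 3 to 4 when a library was left out. Between the lung populations in WT, the 1 call became 2 with no filter or only the groups compared, and 0 with no batch term, batch 2 alone or the replicate block (0 to 1 with a library left out). For WT lung CCR6+CD69+ against circulating, the 2 calls became 5 in DESeq2, 0 in batch 2, and 1 with no batch term, batch 1 alone or the replicate block (1 to 2 with a library left out, 1 without WT lung CCR6+CD69+ replicate 1, 2 or 4 or WT circulating replicate 4). For WT lung CCR6-CD69- against circulating, the 1 call became 3 in DESeq2 or with no filter, and 2 without the libraries under 500000 counts or with only the groups compared. It became 0 with RLE scaling, no batch term, either batch alone, the replicate block or without the libraries led by Chil3 (0 to 1 with a library left out).

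Averaged over genotypes, the 1 call between lung populations became 5 in DESeq2, 3 in batch 1, 0 in batch 2, and 2 with no filter or only the groups compared, and stayed at 1 in every left-out-library fit. Lung CCR6+CD69+ against circulating went from 4 calls to 1 in batch 2 and 3 with the replicate block or no batch term, which lost Il12a (3 to 4 with a library left out). Lung CCR6-CD69- against circulating went from 3 to 8 in DESeq2, 6 with no filter, 2 with no batch term, which lost Ccl4, and 0 in batch 2, and stayed at 3 in every left-out-library fit and with the replicate block. Genotype calls stayed at 0 except for 1 in DESeq2. Over all genes, DESeq2 called 622 over the 6 groups against 235 in edgeR. The other counts of this section stand without the share of all genes called under the same setting, so nothing about the set is read from them.

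Ccr7, uncalled at 0.10 between lung populations over both genotypes, turned to -0.17 without the libraries under 500000 counts, -0.0602 without those led by Chil3, and ran from -0.064 to 0.31 without 1 library (below 0 without WT lung CCR6+CD69+ replicate 4, WT lung CCR6-CD69- replicate 2 or cKO lung CCR6-CD69- replicate 4). Cxcr4, uncalled at 0.11 for lung CCR6-CD69- against circulating, ran from -0.036 (without cKO circulating replicate 2) to 0.33 without 1 library. RLE scaling shifted the median of all genes by -0.11 between lung populations, 0.10 for lung CCR6-CD69- against circulating and -0.10 between genotypes in circulating cells. The cause of these changes was not tested. Same-numbered libraries of a genotype correlated at 0.0795 to 0.228 in their deviations from group means, and at -0.031 to 0.0861 within batches. With 2 libraries per group and batch, the 2 deviations mirror each other, so the within-batch values cannot settle whether the numbers pair samples. Of 24 libraries, 18 correlated best with their own number. No pairing within a genotype was modelled, and the replicate block gave each number a term shared by both genotypes. Depth limits low genes most in the library of 129025 counts.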
